A study of Hipposideros armiger with 2 samples.

Results

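The genes described are those of the proteasome, measured by sequencing of poly(A)-selected RNA in libraries labelled liver from 2 Hipposideros armiger bats, the great Himalayan leaf-nosed bat, from the CW cave. Members were all names in the authors' tables that begin with PSM, a letter from A to G and a number. This rule took 47 of 12783 names, covering 130 of 55378 assembled genes. Of these, 46 names with 129 assembled genes are proteasome subunits, regulators or assembly chaperones. The remaining name, PSMC3IP, belongs to a meiotic recombination factor that is not part of the proteasome. It was listed at 5.12 and 2.17 TPM in replicates 1 and 2, from 8 and 3 counts, and is left out of the sums below. TPM is a level per transcript length, scaled to nearly the same total in each library. Paired values below belong to replicate 1 and replicate 2.

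Both libraries carry the same labels: liver, wild type, exposed to heavy metals. Adult age and male sex are given in the labels for replicate 2, and the design text describes adult males caught in the cave. The metals and doses are not stated in the labels, and the second cave of the design was not analysed here. There is thus 1 group of 2 libraries and no control, so the results are levels and the spread between libraries, with no test. The libraries held 18741210 and 18778331 expected counts.

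The libraries stood apart in the markers of the labelled tissue, and both held high levels of genes that go against that label. The sum of 21 hepatocyte markers was 18680 and 650.2 TPM in replicates 1 and 2, with all 21 over 2-fold higher in replicate 1. Airway and alveolar epithelium markers, with 15 of 16 found, summed to 12500 and 19900 TPM, which in replicate 2 is far above the hepatocyte sum. The list was uneven, and BPIFB1 was not found. SCGB1A1 was at 0.79 and 21.4 TPM, BPIFA1 at 0.05 and 12.5 TPM and MUC5B at 0.71 and 0.13 TPM. The other markers found were at 23.6 TPM or more in both libraries. The secretoglobin SCGB3A1, at 8069 and 12900 TPM, held most of the sum. The surfactant protein gene SFTPC was at 2554 and 4047 TPM, and the lung transcription factor NKX2-1 at 45.8 and 70.2 TPM. The liver label is therefore given only as a label, and levels are given for each library unless a mean is stated. Fewer cells of a type and less RNA per cell cannot be told apart in such bulk samples.

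The proteasome degrades proteins that carry ubiquitin chains. Its barrel-shaped core particle (20S) consists of outer rings of α subunits, which gate the entry, and inner rings of β subunits, of which β1, β2 and β5 cut peptide bonds. A regulatory particle (19S) recognises, deubiquitinates and unfolds substrates with a ring of ATPases and a lid and base of non-ATPase subunits. In cells exposed to interferon γ, and constitutively in many immune cells, the catalytic subunits PSMB6, PSMB7 and PSMB5 are replaced in new particles by PSMB9, PSMB10 and PSMB8. The resulting immunoproteasome favours peptides that fit MHC class I molecules.

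Proteasome transcripts were present in both libraries at levels above those of most names. The 46 names summed to 2295 and 2352 TPM in replicates 1 and 2, a mean of 2324 ± 39.8 TPM (SD, n = 2). Their share of counts was 0.2203% in replicate 1, with a Wilson 95% interval of 0.2182% to 0.2225%. It was 0.2267% in replicate 2, with an interval of 0.2246% to 0.2289%. These intervals cover counting error only. The median member was at 49.9 and 45.3 TPM, while the median of all 12783 names was at 8.74 and 10.3 TPM. Of the 46, 42 reached 10 TPM in both libraries, against 41.6% of all names. The other 4 were PSMD5, PSMD11, PSME3 and PSMG2, at 7.68 to 11.2 TPM. By mean TPM, 21 members lay in the top 10% of names and 33 in the top 25%, and the lowest, PSMG2, was at percentile 43.2.

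**Figure D1:**
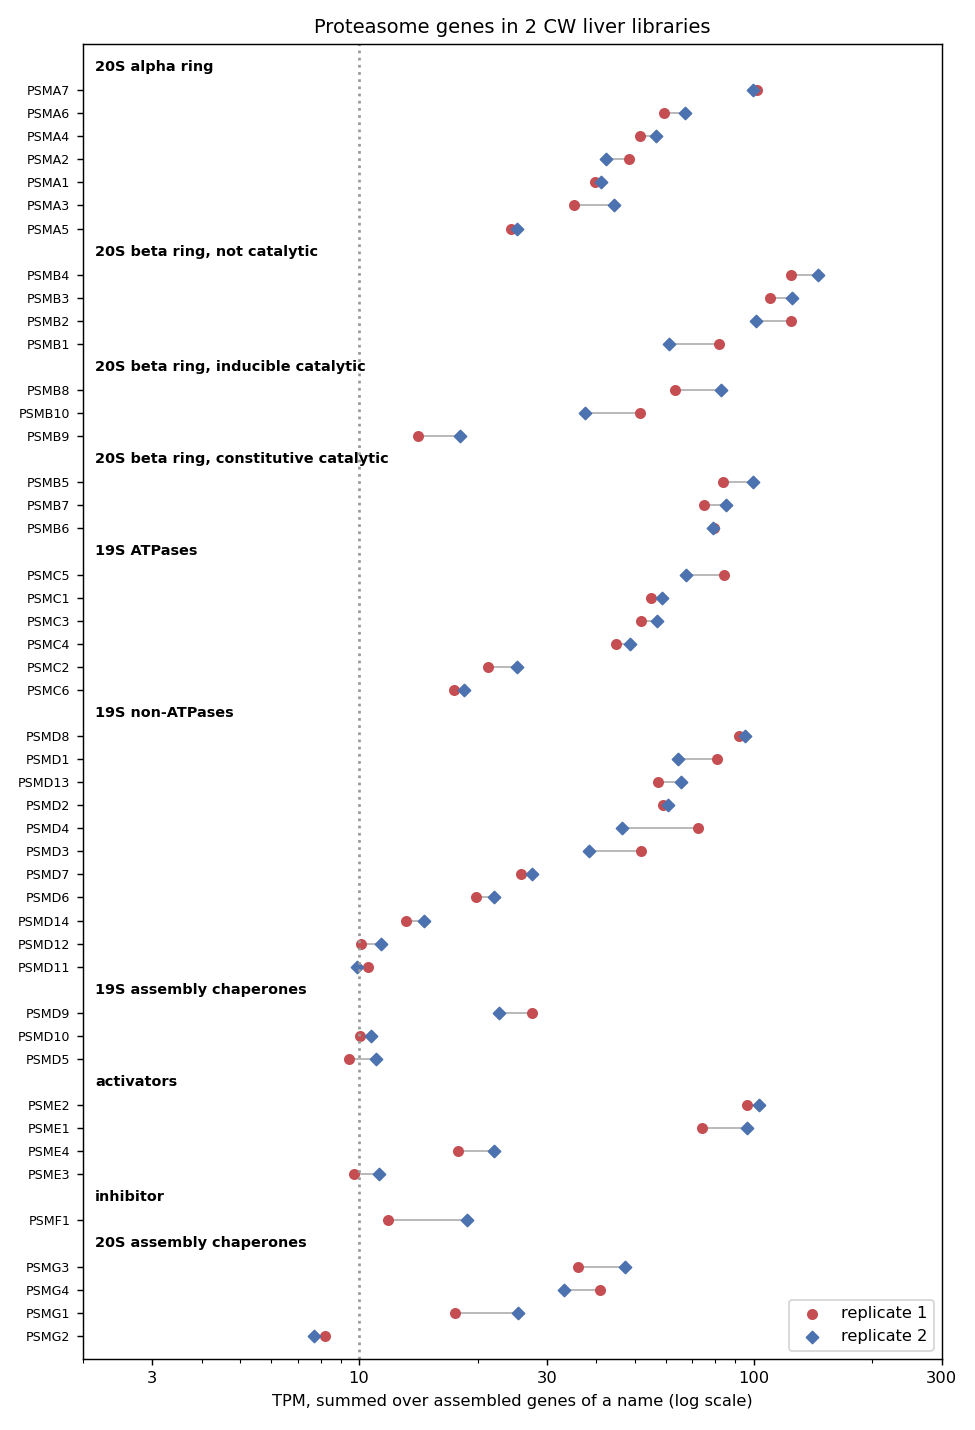
TPM of the 46 proteasome names (log scale) in replicate 1 (circles) and replicate 2 (diamonds), joined by a line and grouped by role, with a dotted line at 10 TPM. PSMB4 was highest at a mean of 135 TPM and PSMG2 lowest at 7.95 TPM; by mean TPM the non-catalytic PSMB4, PSMB3 and PSMB2 lie furthest to the right.

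The α subunits, PSMA1 to PSMA7, build the outer rings with 1 copy of each per ring. Their transcripts did not lie at 1 level: the highest was 4.21 times the lowest in replicate 1 and 3.96 times in replicate 2. PSMA7 was highest at 102 and 99.5 TPM in replicates 1 and 2. PSMA6 followed at 59.4 and 67.0 TPM, and PSMA4 at 51.5 and 56.7 TPM. The order of these 3 was the same in both libraries, and their ranges over the libraries did not overlap. PSMA1 was at 39.8 and 41.0 TPM, PSMA3 at 35.1 and 44.2 TPM, and PSMA5 lowest at 24.3 and 25.1 TPM. PSMA2, at 48.2 and 42.3 TPM, was above PSMA1 in both libraries. PSMA3 was below both of them in replicate 1 and above both in replicate 2, so it did not differ from either beyond its spread. No assembled gene had the name PSMA8, the α subunit of the testis proteasome, although RefSeq lists it among the genes of assembly ASM189008v1.

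The β subunits without proteolytic activity, PSMB1 to PSMB4, summed to 440.9 and 433.4 TPM. Among the members taken by the name rule, PSMB4, PSMB3 and PSMB2 had the highest mean TPM. SHFM1, a regulatory particle subunit outside the rule, was at 142 and 145 TPM. PSMB4 was at 125 and 146 TPM in replicates 1 and 2, PSMB3 at 110 and 125 TPM, and PSMB2 at 125 and 102 TPM. PSMB1 was lower, at 81.7 and 61.0 TPM. The ranges of PSMB2, PSMB3 and PSMB4 overlapped, while PSMB1 lay below all of them in both libraries. Part of the PSMB2 level in replicate 1 came from an assembled gene of 214 bases with 42.3 TPM from 32.9 counts, which had 1.45 TPM from 1 count in replicate 2. The longer PSMB2 assembled gene, of 830 bases, was at 82.3 and 100.1 TPM.

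Inducible catalytic subunits were measured in both libraries at 0.543 and 0.524 times the summed TPM of the constitutive ones, a mean ratio of 0.534 ± 0.014 (SD, n = 2). PSMB8, PSMB9 and PSMB10 summed to 129 and 138 TPM in replicates 1 and 2. PSMB5, PSMB6 and PSMB7 summed to 238 and 264 TPM in replicates 1 and 2. In each of the 3 pairs and in both libraries the inducible subunit was lower than its constitutive counterpart. An exact two-sided sign permutation over 2 libraries cannot go below p = 0.5, so this order was not tested. With only the highest assembled gene of each name, the ratio was 0.476 in replicate 1 and 0.528 in replicate 2, so that the order of the libraries turned round and their gap widened. The ratio is one of transcript levels and was 0.447 when computed from counts per kilobase in place of the deposited TPM.

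The 3 pairs differed in how close the inducible transcript came to the constitutive one. At β5, the chymotrypsin-like site, PSMB8 was at 63.4 and 82.9 TPM, against 83.6 and 99.99 TPM for PSMB5 in the same libraries. The PSMB8 to PSMB5 ratio was 0.759 and 0.830, so that PSMB8 made up 43.1% and 45.3% of the pair. At β2, the trypsin-like site, PSMB10 was at 51.6 and 37.4 TPM, against 75.1 and 85.2 TPM for PSMB7. The ratio was 0.688 in replicate 1 and 0.439 in replicate 2, the widest spread of the 3. At β1, the caspase-like site, PSMB9 was at 14.1 and 18.1 TPM, against 79.2 and 79.0 TPM for PSMB6. PSMB9 made up 15.1% and 18.6% of its pair, the lowest inducible share in both libraries. Counts behind PSMB9 were 229 and 288.

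The higher PSMB10 ratio in replicate 1 rests on short assembled genes. PSMB10 had 4 assembled genes, of which the longest, 1113 bases, was at 30.1 and 32.6 TPM from 630 and 604 counts. A second one of 336 bases had 13.9 TPM from 36.6 counts in replicate 1 and 0 counts in replicate 2. With only the highest assembled gene of each name, the PSMB10 to PSMB7 ratio was 0.402 in replicate 1 and 0.382 in replicate 2. The same restriction gave 0.803 and 0.842 for PSMB8 over PSMB5 and 0.196 and 0.263 for PSMB9 over PSMB6. The order of the 3 pairs was thus the same with and without the other assembled genes.

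**Figure D2:**
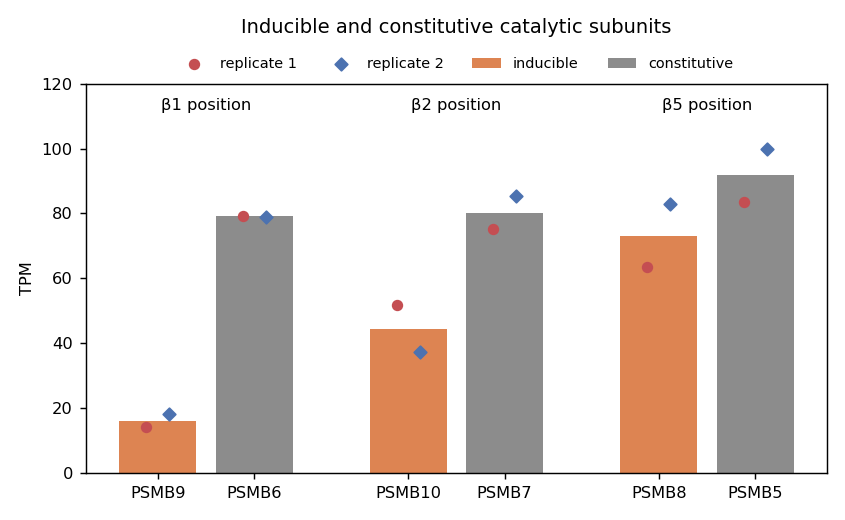
TPM of the inducible (orange bars, left of each pair) and constitutive (grey bars, right) catalytic subunits at the β1, β2 and β5 positions; bars are means of 2 libraries and points are the libraries. PSMB9 stands lowest against its counterpart PSMB6, with a ratio of 0.178 and 0.229, and PSMB8 highest against PSMB5.

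Added up by position, β5 transcripts reached 147 and 183 TPM, β2 transcripts 127 and 123 TPM, and β1 transcripts 93.3 and 97.03 TPM. The non-catalytic β subunits, which have no such alternative partner, ranged from 61.0 to 146 TPM. The order β5, β2, β1 was the same in both libraries. PSMB11, which replaces PSMB5 in the thymus cortex, had no assembled gene with its name, although RefSeq lists it too.

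Annotation columns that the rule did not use could be set beside the names. The KEGG orthology description was "20S proteasome subunit beta 5" for the assembled genes of PSMB8 and PSMB5 alike, "beta 2" for those of PSMB10 and PSMB7, and "beta 1" for those of PSMB9 and PSMB6. This description gives the position but does not tell an inducible subunit from its constitutive counterpart. The split between them therefore rests on the names. The Pfam domain of core subunits was listed for 38 assembled genes in the tables, and all 38 had a member's name. Of 109 assembled genes placed in the KEGG proteasome pathway, 103 had a member's name. The others were named ADRM1, POMP and SHFM1, which are proteasome-bound or assembly proteins. In the other direction, the highest assembled gene was placed in this pathway for 35 of the 46 members. PSMD1, PSMD5, PSMD9, PSMD10, PSME1, PSME2, PSME3, PSMG1, PSMG2, PSMG3 and PSMG4 lacked the entry. The tables' second description column, which names mostly plant and algal proteins, was empty for the highest assembled gene of 8 members: PSMD1, PSMD5, PSMD10, PSME1, PSME2, PSME3, PSMG1 and PSMG3.

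The ATPases PSMC1 to PSMC6 form the ring that unfolds substrates and threads them into the core. They summed to 275 TPM in both libraries. PSMC5 was highest at 84.3 and 67.3 TPM in replicates 1 and 2, followed by PSMC1 at 55.1 and 58.6 TPM and PSMC3 at 51.9 and 56.9 TPM. The ranges of PSMC1 and PSMC3 overlapped. By the highest assembled gene alone, PSMC3 was above PSMC1 in both libraries, at 49.35 and 53.72 TPM against 35.09 and 46.25 TPM. PSMC4 was at 44.8 and 48.7 TPM, PSMC2 at 21.2 and 25.1 TPM, and PSMC6 lowest at 17.4 and 18.4 TPM. The highest PSMC6 assembled gene, of 2620 bases, held 440 of 454 counts in replicate 1 but only 41.5% of the name's TPM, because 3 assembled genes of 256 to 278 bases each gain TPM from few counts.

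The non-ATPase subunits spanned a wider range, 9.15-fold between PSMD8 and PSMD11 by mean TPM. PSMD8, a lid subunit, was at 92.1 and 94.98 TPM. PSMD1, the large base scaffold, was at 80.7 and 64.2 TPM in replicates 1 and 2. Of this, 62.5 and 38.8 TPM came from an assembled gene of 1088 bases that had no KEGG proteasome entry, while the one of 2666 bases with such an entry was at 13.8 and 15.1 TPM. PSMD13, another lid subunit, was at 57.1 and 65.5 TPM. At the low end, PSMD14, the lid enzyme that removes ubiquitin chains, was at 13.2 and 14.6 TPM. The lid subunits PSMD12 and PSMD11 were at 10.1 and 11.4 TPM and at 10.6 and 9.88 TPM, and their ranges overlapped. Subunits that bind ubiquitin chains or ubiquitin-like domains lay between PSMD1 and PSMD14: PSMD2 was at 58.9 and 60.6 TPM, and PSMD4, the ubiquitin receptor, at 72.5 and 46.4 TPM. The PSMD4 level in replicate 1 included 27.9 TPM from an assembled gene of 397 bases that had 0 counts in replicate 2. Its assembled gene of 1264 bases was at 39.5 and 41.7 TPM.

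Activators that cap the core in place of the 19S particle fell into a high and a low pair. PSME2 and PSME1 are the interferon-inducible PA28 subunits that form a mixed ring. PSME2 was at 96.5 and 103 TPM in replicates 1 and 2, and PSME1 at 74.2 and 96.4 TPM. The PSME1 to PSME2 ratio was 0.769 and 0.933. PSME4, the large activator PA200, was at 17.8 and 21.98 TPM. PSME3, the nuclear PA28γ subunit, was lowest at 9.70 and 11.2 TPM. PSME1 was 7.65 and 8.58 times as high as PSME3. The ranges of the high pair did not overlap those of PSME3 and PSME4 in either library.

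The inhibitor PSMF1, also called PI31, was at 11.9 and 18.8 TPM in replicates 1 and 2. Chaperones that pair in assembling the core particle showed unequal levels: PSMG1 was at 17.5 and 25.3 TPM and its partner PSMG2 at 8.21 and 7.68 TPM, while PSMG3 was at 35.8 and 47.3 TPM and its partner PSMG4 at 40.8 and 33.2 TPM. PSMG1 exceeded PSMG2 in both libraries, whereas PSMG3 and PSMG4 changed order. Of the chaperones of the regulatory particle, PSMD9 was at 27.5 and 22.7 TPM, PSMD10, known as the oncoprotein gankyrin, at 10.1 and 10.8 TPM, and PSMD5 at 9.43 and 11.1 TPM. The PSMD9 level in replicate 1 included 8.14 TPM from an assembled gene of 257 bases that had 0 counts in replicate 2. The PSMD9 assembled gene of 1932 bases was at 19.4 and 22.7 TPM.

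The spread of these genes between the libraries was measured next. Ratios are of replicate 1 over replicate 2, on TMM-scaled CPM (counts relative to library size) plus 1, with the median over 11289 tested names set to 0. All 46 members were tested. None was over 2-fold apart, and the values ran from -0.16 for PSMG3 to 0.56 for PSMD1 on the log2 scale. Of all tested names, 5.16% were over 2-fold higher in replicate 1 and 0.0266% over 2-fold lower. Also, 0 members were more than 1.5-fold apart, against 8.71% of all names. With 46 members, these counts of 0 are not read as a narrower spread, and all names include ones with far fewer counts. The 25th and 75th percentiles of the log2 ratio over all tested names were -0.131 and 0.172. The SD of the members' log2 ratios was 0.173. For the members, counting error alone corresponds to an SD of the log2 ratio of 0.051 to 0.17.

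Within that range most members lay to 1 side. The median log2 ratio was 0.21, and 42 of 46 members lay above 0, as did 50% of all tested names by construction. The sign of the median depends on the scaling. By library size, the median was -0.04 for the members and -0.24 for all names, and for the deposited TPM it was -0.11 and -0.33. Library size scaling moves members and all names by nearly the same amount, so it is no separate check of their order. TPM was higher in replicate 2 for 69.6% of members and for 78.2% of all tested names. Each ratio sets a single library against a single library, with no replicate check. The hepatocyte markers had a median log2 ratio of 4.44 and the airway and alveolar markers one of -0.22 between the same libraries, and their part in the members' ratios was not tested.

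**Figure D3:**
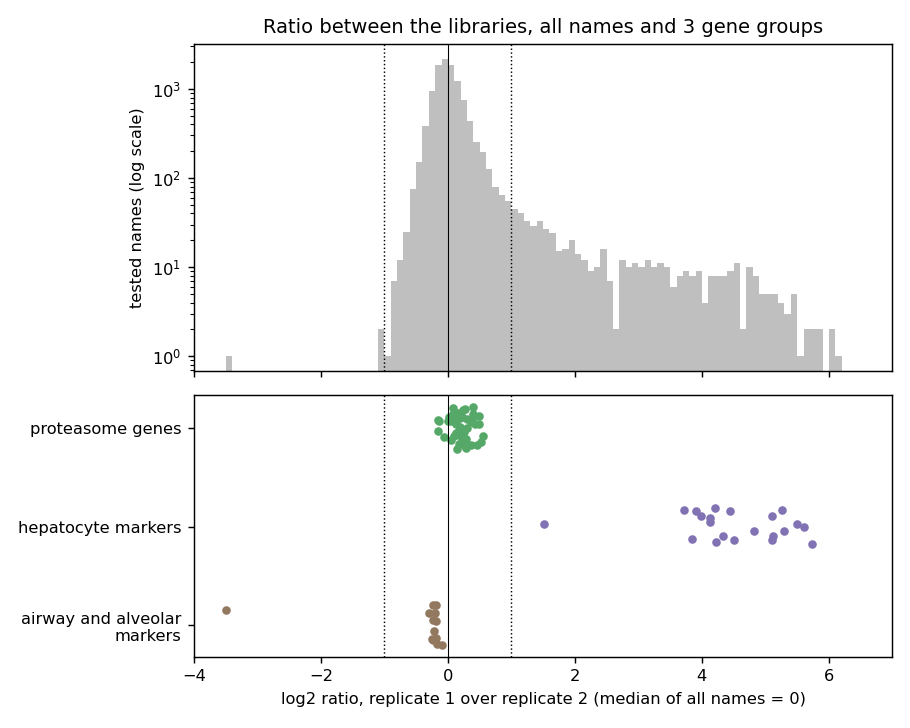
Top, number of tested names (log scale) by log2 ratio of replicate 1 over replicate 2, with the median of all names at 0; bottom, the ratios of 46 proteasome genes, 21 hepatocyte markers and 13 airway and alveolar markers, one point per gene. Dotted lines mark 2-fold: 0 proteasome genes lie outside them, while all 21 hepatocyte markers lie to the right.

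The highest ratios were those of PSMD1 (0.56), PSMB1 (0.53), PSMB6 (0.49) and PSMG4 (0.49). The PSMD1 ratio came mainly from an assembled gene of 1088 bases with 628 counts in replicate 1 and 435 counts in replicate 2, while that of 2666 bases had 363 and 345 counts. PSMB1 had 1388 counts in replicate 1 and 1148 in replicate 2, and PSMB6 had 950 and 806. The lowest were PSMG3 (-0.16), PSMG1 (-0.15), PSMF1 (-0.14) and PSMB9 (-0.07), the 4 members below 0. By group, the median was 0.27 for the α ring, 0.26 for the non-ATPases, 0.23 for the constitutive catalytic subunits and 0.22 for the ATPases. It was 0.11 for the activators, 0.10 for the regulatory particle chaperones and 0.08 for the inducible catalytic subunits. PSMB10 (0.40) lay apart from PSMB8 (0.08) and PSMB9 in this last group, with counts of 672 in replicate 1 and 607 in replicate 2. The 672 counts include 36.6 of the assembled gene of 336 bases that had 0 counts in replicate 2. The highest PSMB10 assembled gene had 630 and 604 counts. The differences between groups were not tested.

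The 129 assembled genes were divided into the one with the highest TPM of each name, 46 in all, and 83 others. The highest assembled gene of each name was 561 to 4243 bases long, with a median of 1385 bases. The others had a median of 351 bases, and 56 of the 83 were under 500 bases, but the longest had 2666. They held 14.1% of the members' TPM in replicate 1 and 9.29% in replicate 2, but only 3.77% and 2.92% of their counts. The others thus weighed more in TPM than in counts. Names differed in this, and the highest assembled gene of PSMB8 held 99.2% of its TPM in both libraries. Only 14 names had 1 assembled gene, among them PSMB7, PSMB9 and PSMF1, and PSMD2 had 10.

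Some short assembled genes were read in 1 library alone. Of the 80 member assembled genes with 10 or more counts in replicate 1, 5 had 0 counts in replicate 2, which is 6.25%, against 5.12% of all assembled genes at that level. In the other direction the number was 0 of 73, against 0.272% of all assembled genes. The 5 were named PSMD4 (397 bases, 105 counts), PSMB10 (336 bases, 36.6 counts), PSMD3 (252 bases, 17.0 counts, and 303 bases, 12.6 counts) and PSMD9 (257 bases, 11.01 counts). The share of the members was near that of all assembled genes. Best protein matches were to mammals except for 3 of the 83 other assembled genes, which matched chicken.

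**Figure D4:**
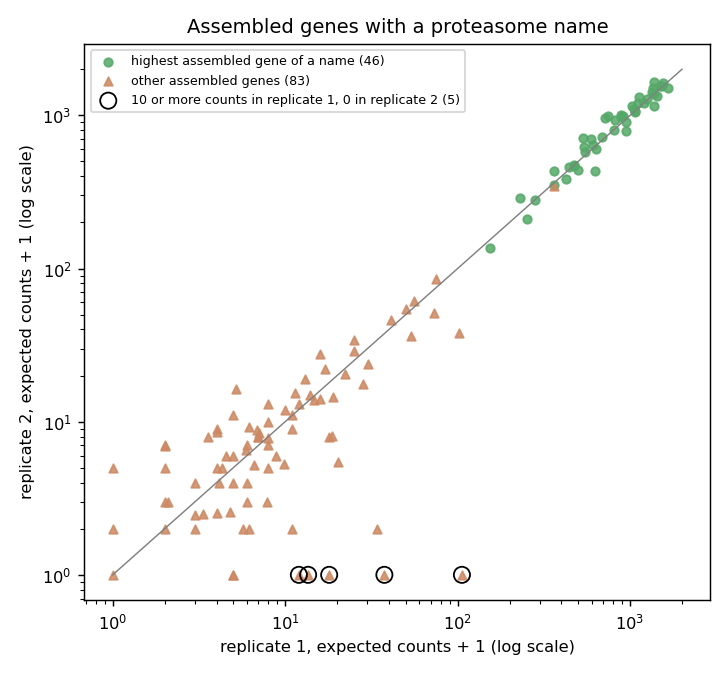
Expected counts plus 1 (log scales) of the 129 assembled genes with a proteasome name, replicate 1 across and replicate 2 up, with a line of equal counts. The 46 highest assembled genes (green circles) lie along the line, and the 5 ringed ones among the 83 others (brown triangles) had 10 or more counts in replicate 1 and 0 in replicate 2.

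Partners of the proteasome outside the name rule were also measured. Of the proteasome-bound and assembly factors, 13 of 17 names were found. SHFM1, a small subunit of the regulatory particle, was at 142 and 145 TPM, and the ubiquitin receptor ADRM1 at 75.4 and 81.1 TPM. The quality control adaptor ECM29 was at 54.6 and 69.3 TPM, and the maturation factor POMP at 64.5 and 53.2 TPM. The list had a median log2 ratio of 0.11, and 0 of 13 were over 2-fold apart on the scaled counts. Over all tested names 5.16% were over 2-fold higher in replicate 1 and 0.0266% lower, so that a count of 0 in this list or those below is near the background.

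Ubiquitin genes were represented by UBB, at 3439 and 3697 TPM, which encodes a chain of fused ubiquitins and was higher than any subunit. RPS27A, a fusion of ubiquitin and a ribosomal protein, was at 369 and 437 TPM. The activating enzymes UBA1 and UBA6 were lower, UBA1 at 67.3 and 60.5 TPM and UBA6 at 3.14 and 8.18 TPM. Among shuttle factors and p97, with 10 of 12 found, UBXN1 was at 94.0 and 121 TPM and the segregase VCP at 85.3 and 82.6 TPM. UFD1L, a VCP cofactor, was at 16.8 and 14.8 TPM, and the shuttle RAD23B at 11.9 and 17.2 TPM. The medians of the ubiquitin and shuttle lists were 0.10 and 0.09. On the scaled counts 0 of their 4 and 10 genes were over 2-fold apart, against 5.16% of all names, although the TPM of UBA6 differed by more. The log2 ratio of UBA6 was 0.03 on the scaled counts and -1.15 on TPM plus 1.

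Transcription factors linked to proteasome genes were measured, in a list of 9 names that also holds the enzymes NGLY1 and DDI2. NFE2L1, which restores subunit synthesis when the proteasome is blocked, was at 66.6 and 61.5 TPM. NFE2L2, the factor of the oxidative stress response, was at 27.9 and 39.1 TPM. The small MAF protein MAFF was at 20.6 and 29.4 TPM and the larger MAF at 19.2 and 11.9 TPM. Of the 9 names, NFE2L3 and DDI2 were not found. Of the 7 found, 0 were over 2-fold apart, against 5.16% of all names, with a median log2 ratio of 0.11.

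The interferon signalling that induces the immunoproteasome was represented by its receptors and signal carriers. The kinase JAK1 was at 78.5 and 95.3 TPM, and the receptor chains IFNGR2 and IFNGR1 at 46.3 and 47.6 TPM and at 19.6 and 29.0 TPM. The signal carrier STAT2 was at 25.9 and 25.2 TPM, and IRF1, which binds the PSMB9 promoter in human, at 19.3 and 22.9 TPM. No assembled gene had the name IFNG, the inducing cytokine, or CIITA. The 10 tested members had a median log2 ratio of -0.01, and 0 were over 2-fold apart, against 5.16% of all names.

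Genes that use the peptides were also measured. All 10 antigen processing genes were found, and B2M, the light chain of MHC class I, was highest at 1129 and 1358 TPM. The chaperone CALR was at 323 and 256 TPM, the loading partner PDIA3 at 136 and 169 TPM, and TAPBP, which holds MHC class I at the peptide transporter, at 49.4 and 64.7 TPM. Not all were well covered: TAP1, from 5.51 and 12.8 counts, fell below the filter, and ERAP1 was lowest at 3.39 and 4.59 TPM. The 9 tested members had a median of -0.01, with 0 over 2-fold apart, against 5.16% of all names. Of the 6 peptidases that trim proteasome products, LAP3 was highest at a mean of 27.8 ± 2.57 TPM (SD, n = 2), higher in replicate 2, followed by NPEPPS at 15.7 and 22.1 TPM, BLMH at 14.6 and 20.5 TPM and XPNPEP1 at 9.23 and 9.21 TPM. Their median was 0.15. The aggresome and autophagy list, led by the chaperone HSPA8 at 300 and 291 TPM and the receptor SQSTM1 at 150 and 147 TPM, had a median of 0.11. BAG3 was at 47.8 and 53.5 TPM and the ubiquitin ligase STUB1 at 57.8 and 67.2 TPM.

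**Figure D5:**
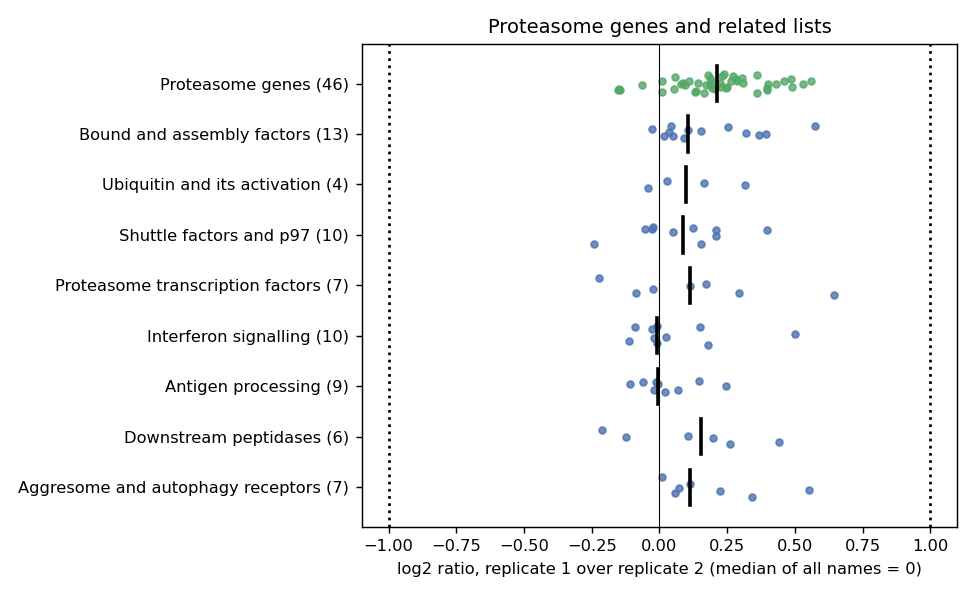
Log2 ratio of replicate 1 over replicate 2 for tested genes of the proteasome and 8 related lists, one point per gene, with the number tested in brackets, a bar at the median and dotted lines at 2-fold. The proteasome median is 0.21, those of the other lists lie between -0.01 and 0.15, and no point is past 2-fold.

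Many immune cells, though not all, carry the inducible subunits constitutively, and a range of immune cell markers was present in both libraries. Shared leukocyte markers, with 6 of 7 found, summed to 141 and 160 TPM in replicates 1 and 2, with PTPRC, which encodes CD45, at 7.54 and 9.46 TPM. Macrophage and dendritic cell markers, 9 of 10 found, summed to 331 and 379 TPM. Neutrophil markers, 8 of 8 found, summed to 982 and 1450 TPM, led by S100A8 at 555 and 816 TPM and S100A9 at 354 and 517 TPM. The granule genes MPO, at 0 in both libraries, and ELANE, at 0 and 0.07 TPM, were at or near 0. B and plasma cell markers, 5 of 7 found, summed to 328 and 485 TPM. T and NK cell markers, 6 of 10 found, summed to 20.9 and 27.1 TPM, with CD4 at 0 in both libraries and CD3D and CD3G at 0 in replicate 1. Single markers over 2-fold higher in replicate 1 were the macrophage genes MARCO (log2 ratio 3.43) and CD5L (1.67), the sinusoidal endothelial genes CLEC4G (3.02) and STAB2 (1.20), and CD8A of T cells (2.73). The airway gene BPIFA1 was over 2-fold lower (-3.50). CD5L had 42.7 and 2 counts and BPIFA1 1 and 224 counts. Counting error alone corresponds to an SD of the log2 ratio of 1.04 for CD5L and 1.45 for BPIFA1. Of all tested names, 5.16% were over 2-fold higher in replicate 1 and 0.0266% lower. Endothelial markers summed to 222 and 221 TPM, striated muscle markers to 429 and 426 TPM, and erythroid markers to 29900 and 36320 TPM. The part of these cell types in the levels of PSMB8, PSMB9 and PSMB10 was not tested.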

How the data were processed

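Reads of both libraries went through cutadapt 1.9, and the mouse build mm10 is listed for replicate 1, per the submitters' processing notes; assembler version and quantifier are not given in the sources used here. The authors deposited, per the file headers, expected counts per Trinity assembled gene, which were rounded to whole numbers, and a column read as TPM from its sum of 996837 and 996239; both libraries list the same genes and lengths. A name is the authors' best Swiss-Prot match, which does not show the species of a transcript, and reads of near-identical copies may be split between assembled genes. Values were summed by upper-cased name. Of 47 members, 44 were symbols in the RefSeq table, all but PSMA2, PSMB9 and PSMG3. The ECM29 and UFD1L names were added as older names after the values were seen.

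Ratios used TMM factors of 0.9096 and 1.0993 (edgeR 4.0.16, R 4.3.3), a pseudocount of 1 CPM and names with a mean of at least 1 CPM; computations ran in Python 3.11.15. The function was tested on simulated data. Alternatives were other scalings (DESeq2 1.42.0), pseudocounts, filters, best matches and assembled genes. Floors follow a count of 3, which is 1.6e-05% of a library. The labels do not number animals; the design text describes separate animals. Full values were given for catalytic subunits, activators, inhibitor and core chaperones, the 3 highest and lowest of other classes and the 4 largest ratios each way; of other lists, the 4 highest and those past 2-fold. Further members were named after their values were seen. A few list genes are left out and not reported here. The members and lists were chosen with earlier results of these data known.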

Additional observations from a re-analysis of the deposited data

How the results depend on the processing

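The number of members over 2-fold apart was 0 under all of its alternatives, which were library size scaling, DESeq2 size factors, a pseudocount of 0.1 CPM, no filter or one at 10 CPM, TPM, the highest assembled gene per name and mammalian best matches. With the main settings, 5.16% of all tested names were over 2-fold higher in replicate 1 and 0.0266% lower. Shares under the alternatives are not given here, so these counts of 0 are not read as a narrower spread. The members' median log2 ratio moved to -0.036 with library size scaling and to -0.108 with TPM, as these leave the median of all names at -0.238 and -0.332; its other alternatives gave 0.206 to 0.22. The summed level went to 2053 TPM with the highest assembled gene per name, which leaves out 83 assembled genes, and to 2680 with counts per kilobase, where the cause was not tested. The inducible to constitutive ratio went to 0.5019, 0.4472 and, without assembled genes read in 1 library only, an alternative chosen after seeing the data, 0.5043. The PSMB8 to PSMB5 ratio went to 0.6099 with counts per kilobase. The values named here moved by more than the SD of 2 libraries or, for the median, the counting interval. Without each replicate in turn, the summed level ranged from 2295 to 2352 TPM, the inducible to constitutive ratio from 0.524 to 0.543, and the PSMB8, PSMB9 and PSMB10 ratios from 0.759 to 0.830, 0.178 to 0.229 and 0.439 to 0.688. Members at 10 TPM numbered 43 to 44 in a single library. No paired analysis was possible because both libraries are of 1 group. Depth limits the levels of names and assembled genes with few counts, such as PSMC3IP with 8 and 3; the spread between animals rests on 2 libraries.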
